A study of Mus musculus with 2 samples.

Results

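The MHC class II presentation genes were followed in single immune cells of mouse gliomas through 9 genes, H2-Aa, H2-Ab1, H2-Eb1, Cd74, H2-DMa, H2-DMb1, H2-DMb2, H2-Oa and Ciita, which were chosen by symbol and each matched 1 of the 31053 gene rows. Their UMIs (unique molecular identifiers, each standing for 1 captured RNA molecule) were counted in barcodes with at least 1000 UMIs of which at most 17% were mitochondrial, 10107 cells in WT and 7604 in CD169-DTR. Both groups were adult male mice on the C57BL/6 background. CD169-DTR mice were heterozygous for a diphtheria toxin receptor placed under control of the gene of CD169 (Siglec1, a sialic acid receptor of macrophages), and WT mice lacked it. All mice of both groups received diphtheria toxin on days -1 and 4 and 100000 cells of the GL261 glioma line into the brain. Living CD45.2+ cells were sorted from the tumors on day 10 and loaded as 1 library per group, pooled from 3 mice, so that no mouse can be told from another. Neither group has a replicate library, and no test was run. All intervals below are at 95% and cover counting error only, and a difference between the libraries cannot be told apart from a difference between pools or preparations.

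Class II molecules show peptides from engulfed proteins to CD4 T cells. Each is a pair of an alpha and a beta chain (H2-Aa with H2-Ab1 for I-A, and H2-Eb1 for the beta chain of I-E) that is built on the invariant chain, the product of Cd74, which fills the groove until lysosomal proteases cut it down. H2-DM, made by H2-DMa with H2-DMb1 or H2-DMb2, then swaps the last fragment of invariant chain for peptide, and H2-DO, made by H2-Oa and H2-Ob, holds H2-DM back. Ciita is the coactivator that switches these genes on. Dendritic cells and B cells carry it at rest, macrophages gain it after interferon-gamma, and resting microglia have little. Mice of the C57BL/6 strain lack a working alpha chain of I-E, so H2-Eb1 is read here as RNA only, and the alpha chain gene has no row in these data.

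Of the 9 genes, 7 lie within 224 kb on chromosome 17 of the mm10 (GRCm38) genome, from 34092340 to 34316674. Ciita is on chromosome 16, from 10480059 to 10528418, and Cd74 lies on another chromosome. Promoters of H2-Aa, H2-Eb1, H2-Oa, H2-DMb1 and H2-DMb2 are shown because these genes part company between cell types below. The first 3 share the same pair of exact short sequences, GCAAC and ATTGG. Class II promoters are known for an X box, read by the RFX complex, followed by a Y box, read by NF-Y, and CIITA docks on the proteins bound there. Each line gives the 130 bases before the start site (RefSeq, GRCm38.p6), with the letters GCAAC (core of the X box) and ATTGG (core of the Y box) in capitals, on either strand.
H2-Aa, chr17:34287824-34287953, minus strand: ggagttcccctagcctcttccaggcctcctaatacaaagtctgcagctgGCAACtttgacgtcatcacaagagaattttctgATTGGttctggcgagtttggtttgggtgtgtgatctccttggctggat
H2-Eb1, chr17:34305737-34305866, plus strand: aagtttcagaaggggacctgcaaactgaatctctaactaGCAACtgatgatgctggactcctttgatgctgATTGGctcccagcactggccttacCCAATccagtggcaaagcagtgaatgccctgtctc
H2-Oa, chr17:34092249-34092378, plus strand: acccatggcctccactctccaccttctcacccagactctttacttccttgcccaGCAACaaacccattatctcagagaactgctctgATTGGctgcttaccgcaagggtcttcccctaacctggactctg
H2-DMb1, chr17:34153061-34153190, plus strand: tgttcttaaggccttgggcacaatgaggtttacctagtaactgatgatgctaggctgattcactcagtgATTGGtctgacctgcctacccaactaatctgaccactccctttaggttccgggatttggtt
H2-DMb2, chr17:34145119-34145248, plus strand: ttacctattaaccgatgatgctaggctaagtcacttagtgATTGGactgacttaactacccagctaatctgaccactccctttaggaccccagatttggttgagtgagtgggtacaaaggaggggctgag

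The first base of GCAAC lay 81 bases before the start site in H2-Aa, 91 in H2-Eb1 and 76 in H2-Oa, and ATTGG began 33, 32 and 33 bases after it. H2-Ob, the partner of H2-Oa, had the same order, with ATTGG beginning 30 bases after the first base of GCAAC. A pair with 15 to 45 bases from the first base of GCAAC to that of ATTGG, read on 1 strand in either orientation, occurred in 471 of 32851 promoters of 300 bases, 1.43%, whereas GCAAC alone was in 35.2% and ATTGG alone in 37.4%. The letters and the distance were chosen after the H2-Aa promoter was seen. H2-DMb1 and H2-DMb2 held ATTGG without GCAAC in this window and shared 174 of 209 aligned bases before the start, 83.3%. Where H2-Eb1 has GCAACtgatgatgct before ATTGG, H2-DMb1 has gtaactgatgatgct and H2-DMb2 has ttaaccgatgatgct. An exact match to GCAAC misses such near matches, so that no lack of an X box is read from it. No promoter of H2-Ab1, Cd74 or Ciita was in the table used, and H2-DMa had 2 listed starts.

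Clusters were made without these 9 genes, H2-Ob and H2-Eb2, so that no cell class was drawn from them, and were named from marker lists. Microglia numbered 4752 cells in WT and 5375 in CD169-DTR, macrophages 2440 and 785, dendritic cells 1010 and 191, and B cells 74 and 124. All listed markers of its own class were detected in each of these 4 classes in both libraries. Detection alone does not set the classes apart, as all microglial markers were also detected in macrophages and all macrophage markers in microglia. Summed, the microglial markers stood at 8509 (WT) and 9047 (CD169-DTR) CPM in microglia and at 683 and 756 in macrophages. The macrophage markers stood at 9444 and 6074 in macrophages and at 5599 and 4174 in dendritic cells. The dendritic cell markers stood at 1305 and 1065 in dendritic cells and at 60.7 and 37.9 in macrophages. The libraries held 101808996 (WT) and 84065489 (CD169-DTR) UMIs, with medians of 7776 and 8099.5 UMIs per cell, and shared 21 barcodes. CPM stands for UMIs per 1000000, and Siglec1 stood at 17.8 CPM over all cells in WT and at 5.46 in CD169-DTR. Markers of other classes are given as sums beside each comparison of the libraries below, and their part in the class II values was not tested.

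The chain genes H2-Aa, H2-Ab1 and H2-Eb1 were highest in dendritic cells, followed by B cells and macrophages, and lowest in microglia, in both libraries and among these 4 classes. Their summed level was 30918 CPM in WT and 34622 in CD169-DTR dendritic cells. B cells had 9249 and 11886 CPM, macrophages 7535 and 5612, and microglia 324 and 159. Dendritic cells thus stood 4.10-fold above macrophages in WT and 6.17-fold in CD169-DTR, and macrophages 23.3-fold and 35.2-fold above microglia. The microglial levels are as counted and hold free RNA, described below, so that these last 2 folds are not those of the cells' own RNA. B cells lay 1.23-fold above macrophages in WT and 2.12-fold in CD169-DTR, the only neighbours in this order that were within 1.5-fold of each other in a library. Among the 3 chains, the order of B cells and macrophages turned for H2-Ab1 in WT, at 2899 and 2969 CPM, and the interval of that ratio included 0 on the log2 scale (-0.11 to 0.04).

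**Figure D1:**
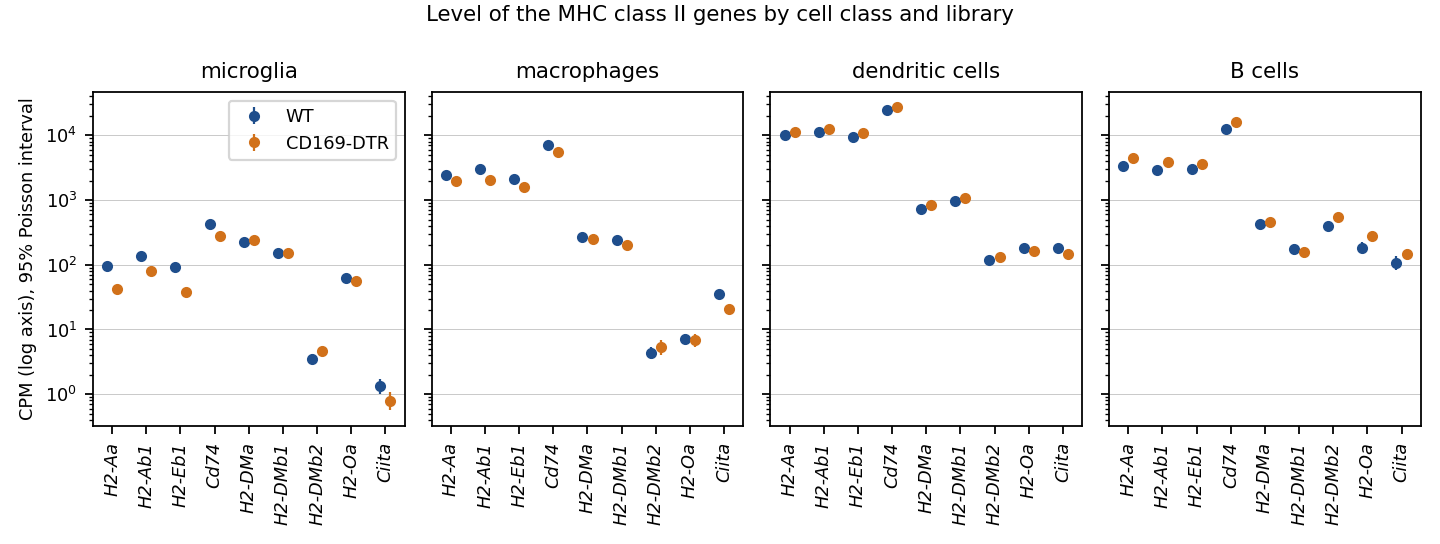
Level of each gene in CPM (log axis) in microglia, macrophages, dendritic cells and B cells, with WT in blue, CD169-DTR in orange and 95% Poisson intervals as bars, many smaller than the points. The chains and Cd74 climb from microglia to dendritic cells in both libraries, while H2-Oa is at 57.0 to 62.7 CPM in microglia and near 7 CPM in macrophages.

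Most chain RNA sat in few cells. Dendritic cells, 9.99% of the WT cells, held 68.1% of the WT chain UMIs, and in CD169-DTR, where they were 2.51% of cells, they held 58.5%. Macrophages held 25.5% and 31.3%. Microglia, 47.0% and 70.7% of the cells, held 2.41% and 4.53%. Over all cells the chains were at 6155 CPM in WT and 2357 in CD169-DTR, a log2 ratio of 1.39 (1.38 to 1.39), beside 0.43 in macrophages and -0.16 in dendritic cells, the classes that held most of them. The makeup of the cells and the level within cells both enter that total.

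Cd74 followed the chains. It stood at 24486 and 27424 CPM in dendritic cells (WT and CD169-DTR in this order), 12560 and 16118 in B cells, 6989 and 5467 in macrophages and 427 and 282 in microglia. Its ratio to H2-Ab1 differed by class. B cells had 433 (410 to 458) and 418 (401 to 437) Cd74 UMIs per 100 of H2-Ab1, and dendritic cells 216 (215 to 218) and 219 (216 to 222). Macrophages had 235 (233 to 238) and 264 (260 to 269), and microglia, as counted with free RNA, 312 (303 to 321) and 356 (344 to 368). Plasmacytoid dendritic cells had 473 (439 to 510) and 426 (366 to 497), near the B cells. The ratio thus separated B cells from dendritic cells in both libraries, but not from plasmacytoid dendritic cells. It moved little between the libraries in B cells and dendritic cells, and was higher in CD169-DTR in macrophages and microglia. Over the 40 cluster sums (20 clusters in 2 libraries) the Pearson r of log2(CPM + 10) between Cd74 and each chain was 0.98, a description in which all sums share 2 libraries.

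Ciita was sparse and ordered like the chains. Dendritic cells had 2307 and 458 UMIs (181 and 147 CPM), and B cells 60 and 98 (107 and 146 CPM). Macrophages had 688 and 214 UMIs (35.2 and 20.9 CPM), and microglia 58 and 41 in all (1.34 and 0.786 CPM). At a common depth of 3000 UMIs per cell, 37.8% (34.7 to 40.9) of the dendritic cells of WT had a Ciita UMI, as had 40.0% (33.0 to 47.3) of those of CD169-DTR. In microglia the shares were 0.285% (0.152 to 0.488) and 0.115% (0.0422 to 0.2499). These were at or below the 1.16% and 0.485% of T cells, a class that should lack class II.

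H2-DMa kept the order of the chains with far smaller steps, and H2-DMb1 was lower in B cells than in macrophages. H2-DMa was at 225 and 241 CPM in microglia and at 268 and 250 in macrophages, against 717 and 825 in dendritic cells and 427 and 464 in B cells. H2-DMb1 was at 151 and 149 CPM in microglia, 242 and 199 in macrophages, 957 and 1090 in dendritic cells and 173 and 157 in B cells. Macrophages stood 1.19-fold (WT) and 1.03-fold (CD169-DTR) above microglia in H2-DMa, and 1.60-fold and 1.33-fold in H2-DMb1. A UMI of H2-DMa was found in 47.3% (45.9 to 48.8) of the WT microglia thinned to 3000 UMIs and 49.4% (48.0 to 50.7) of those of CD169-DTR, beside 11.8% and 9.22% of T cells and 6.41% and 4.83% of granulocytes. The H2-DMa gene overlaps another annotated gene, CR974462.3, on its strand, and how the counter shared reads between them is not given in the sources used here.

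H2-Oa, one chain of the H2-DM inhibitor, was higher in microglia than in macrophages. Its level was 62.7 and 57.0 CPM in microglia and 7.15 and 6.83 in macrophages, 8.77-fold and 8.34-fold apart. Dendritic cells had 180 and 160 CPM and B cells 184 and 280. Its partner H2-Ob had the same order in these cells, at 22.3 and 23.2 CPM in microglia, 2.96 and 3.03 in macrophages, 45.8 and 56.0 in dendritic cells and 346 and 458 in B cells. At 3000 UMIs, 17.3% (16.2 to 18.4) of the WT microglia had an H2-Oa UMI, as had 16.1% (15.2 to 17.2) of those of CD169-DTR. The share in macrophages, 1.68% and 1.76%, was below that of T cells (5.32% and 2.91%) and is read as background. Microglia had 27.9 (26.7 to 29.1) and 23.6 (22.7 to 24.6) H2-Oa UMIs per 100 of H2-DMa, close to the 25.1 and 19.4 of dendritic cells, while macrophages had 2.67 and 2.74. H2-Aa and H2-Eb1, with the same X and Y letters in the promoters printed above, had the opposite order, at 94.6 CPM in WT microglia against 2446 in WT macrophages for H2-Aa and 92.5 against 2120 for H2-Eb1.

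H2-DMb1 and H2-DMb2, neighbouring copies of the same beta chain gene, were used differently by B cells and myeloid cells. In macrophages there were 1.81 (1.45 to 2.24) and 2.69 (2.02 to 3.52) UMIs of H2-DMb2 per 100 of H2-DMb1, and in microglia 2.33 and 3.12. Dendritic cells had 12.4 (11.7 to 13.1) and 11.97 (10.8 to 13.3). Within them the cluster led by Ccr7 had 60.4 (49.6 to 73.3) and 53.2 (35.5 to 78.8). The cluster led by Cd209a had 11.8 and 11.6, and that led by Xcr1 10.0 and 9.23. H2-DMb1 was lower in the Ccr7 cluster, at 178 and 335 CPM, against 1030 and 1121 (Cd209a) and 1158 and 1243 (Xcr1). H2-DMb2 was at 107 and 178 CPM in the Ccr7 cluster, against 122 and 130 (Cd209a) and 116 and 115 (Xcr1). In WT the higher ratio of the Ccr7 cluster thus went with less H2-DMb1, not with more H2-DMb2. B cells had 229 (180 to 294) and 349 (280 to 437), so that H2-DMb2 was the more counted copy in them alone among the 4 classes. The level of H2-DMb2 was 396 and 546 CPM in B cells, 119 and 130 in dendritic cells, 4.40 and 5.37 in macrophages and 3.52 and 4.66 in microglia. A UMI of it was in 68.1% (55.8 to 78.8) and 80.2% (71.5 to 87.1) of B cells at 3000 UMIs. The copies are nearly alike, reads that match both cannot be placed, and the share lost to each is not known, so that the change of the ratio between classes is the measurement, not the ratio itself.

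**Figure D2:**
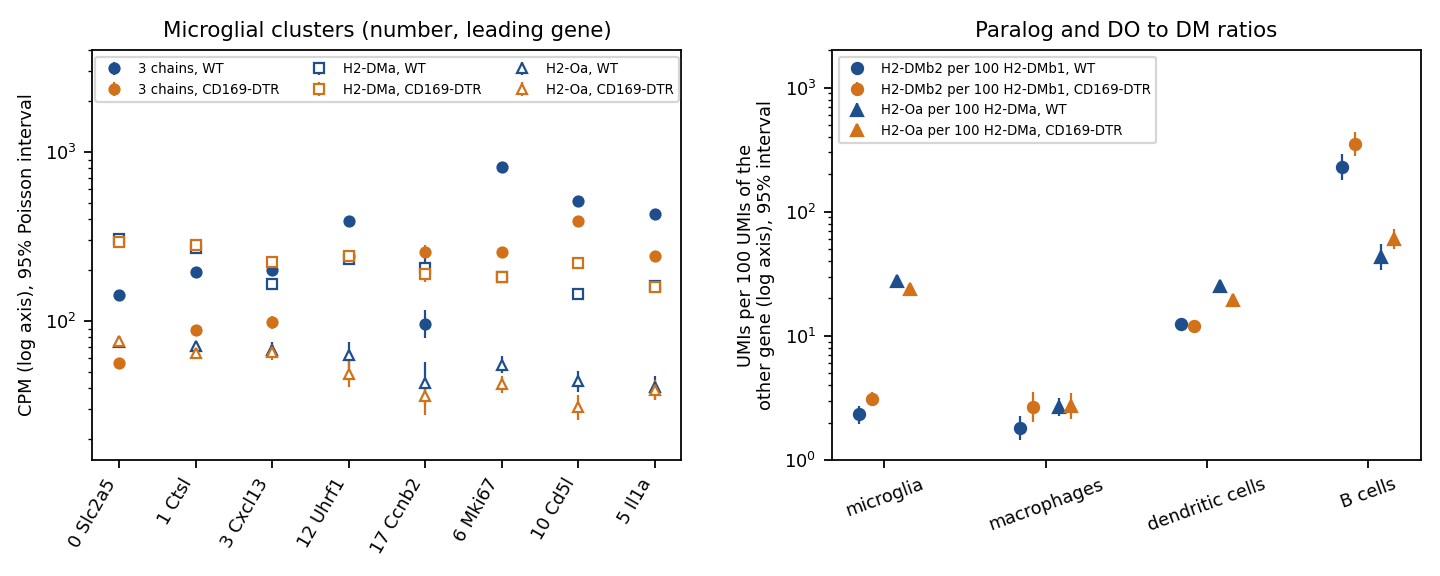
On the left, CPM (log axis, 95% Poisson intervals) of the 3 chains, H2-DMa and H2-Oa in the 8 microglial clusters named by number and leading gene. On the right, UMIs of H2-DMb2 per 100 of H2-DMb1 (circles) and of H2-Oa per 100 of H2-DMa (triangles) by class (log axis, 95% intervals), with B cells at 229 and 349 for the first and macrophages at 2.67 and 2.74 for the second.

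Microglial clusters ranged over more than the libraries did. Cluster 0, led by Slc2a5 and P2ry12, had the lowest chain level of the 8 in CD169-DTR, at 56.2 CPM (143 in WT), and the highest H2-Oa, at 74.7 CPM in WT and 76.2 in CD169-DTR, and the highest H2-DMa, at 307 and 292 CPM. Cluster 5, led by Il1a, had 429 and 242 CPM of the chains, 40.3 and 39.0 of H2-Oa and 160 and 158 of H2-DMa. Cluster 10, led by Cd5l, Igf1 and Spp1, had 514 and 392 CPM of the chains and 44.0 and 30.9 of H2-Oa. Cluster 3, led by Cxcl13, Ifnb1 and Il12b and holding Cxcl10 among its leading genes, had 200 and 97.7 CPM of the chains, between clusters 0 and 5. These chain levels are as counted and hold free RNA, described below. WT cluster 0 had 1124 chain UMIs in 1418 cells, where free RNA was put at 0.888 chain UMIs per droplet. The median depth was 5306 UMIs in WT cluster 0 and 14050 in WT cluster 10. The part of free RNA and depth in the differences between clusters was not tested. The chains of single clusters rest on few cells. In cluster 6, led by Mki67, 1 WT cell had 653 of the 4452 chain UMIs, and in cluster 5, 1 CD169-DTR cell had 701 of the 1411.

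Between the libraries, the microglial chains were at 324 CPM (319 to 329) in the WT library and 159 CPM (156 to 163) in that of CD169-DTR, a log2 ratio of 1.02 (0.98 to 1.06). H2-Aa was at 94.6 and 42.6 CPM (1.15), H2-Ab1 at 137 and 79.3 (0.79), H2-Eb1 at 92.5 and 37.6 (1.30) and Cd74 at 427 and 282 (0.60). H2-DMa, H2-DMb1 and H2-Oa differed by -0.10, 0.02 and 0.14 on the log2 scale, and H2-DMb2, with 152 and 243 UMIs, by -0.40. Of the 8 genes with at least 100 UMIs in microglia, 4 were at least 1.5-fold higher in WT and 0 lower, where 1.71% of 11621 genes were so much higher and 1.27% lower. Ciita had too few UMIs to be counted. In the same microglia the 10 listed macrophage markers, all detected, summed to 391 and 211 CPM and the 9 dendritic cell markers to 142 and 151.

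Classes that should lack class II showed the same direction with larger ratios. The chains were at 2143 CPM in WT and 379 in CD169-DTR T cells (log2 2.50), 845 and 107 in NK cells (2.98), 846 and 76.6 in granulocytes (3.46), 590 and 140 in endothelial cells (2.08) and 214 and 32.1 in choroid plexus cells (2.74). The share of WT microglia with at least 3 chain UMIs at 3000 UMIs was 2.52% (2.09 to 3.02). It was below those of WT T cells (6.48%), NK cells (4.15%), granulocytes (16.7%), endothelial cells (4.42%) and choroid plexus cells (3.45%). In CD169-DTR it was 1.28% (0.995 to 1.63), beside 0.485%, 1.20%, 2.76%, 3.70% and 0 of 169 choroid plexus cells, which allows up to 1.78%. The 115 WT microglia with at least 3 had a Ciita UMI in 5.22% and a Cd74 UMI in 82.6%. The other WT microglia had them in 0.158% and 38.7%. P2ry12 was in 66.1% against 82.1%, and the median Scrublet score, described below, was 0.0837 against 0.0625. Of WT T cells, 3.70% had 30 or more chain UMIs. The source of the chain RNA in these cells was not tested. Median depth was 7649 UMIs in WT microglia and 6606 in WT T cells. Single cells weigh on the sums of these classes, and in CD169-DTR 1 T cell held 570 of the 607 chain UMIs of T cells (1629 of 8994 in WT). Among cells with at most 2 chain UMIs, the mean was 0.342 per cell in WT and 0.167 in CD169-DTR microglia, and 0.339 and 0.0927 in T cells.

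Free RNA, measured in barcodes of 10 to 100 UMIs, held the chains at 5810 CPM in WT and 1754 in CD169-DTR. Subtracting 153 and 108 free UMIs per droplet left a microglial log2 ratio of 0.70 and 2 genes past 1.5-fold in place of 4. These amounts came from P2ry12, Tmem119, Sparc, Olfml3, Gpr34, C1qa, C1qb and C1qc in T cells. The untrimmed mean of the same genes gave 1167 and 542 free UMIs per droplet, and no chain UMI was left in WT microglia. That WT amount stands for 6.78 chain UMIs per droplet. It exceeds the 2.94 counted per WT microglial cell, so that this setting takes away more than was counted. In CD169-DTR, where free class II RNA was lower, 27.0% (25.8 to 28.2) of microglia had a Cd74 UMI, beside 8.74% (5.26 to 13.5) of T cells, 14.5% of NK cells, 21.4% of granulocytes, 9.63% of endothelial and 6.51% of choroid plexus cells. H2-Ab1 was found in 11.1% (10.2 to 11.9) of CD169-DTR microglia and 4.37% (2.02 to 8.13) of T cells, while in WT it was in 17.7% and 16.4%.

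**Figure D3:**
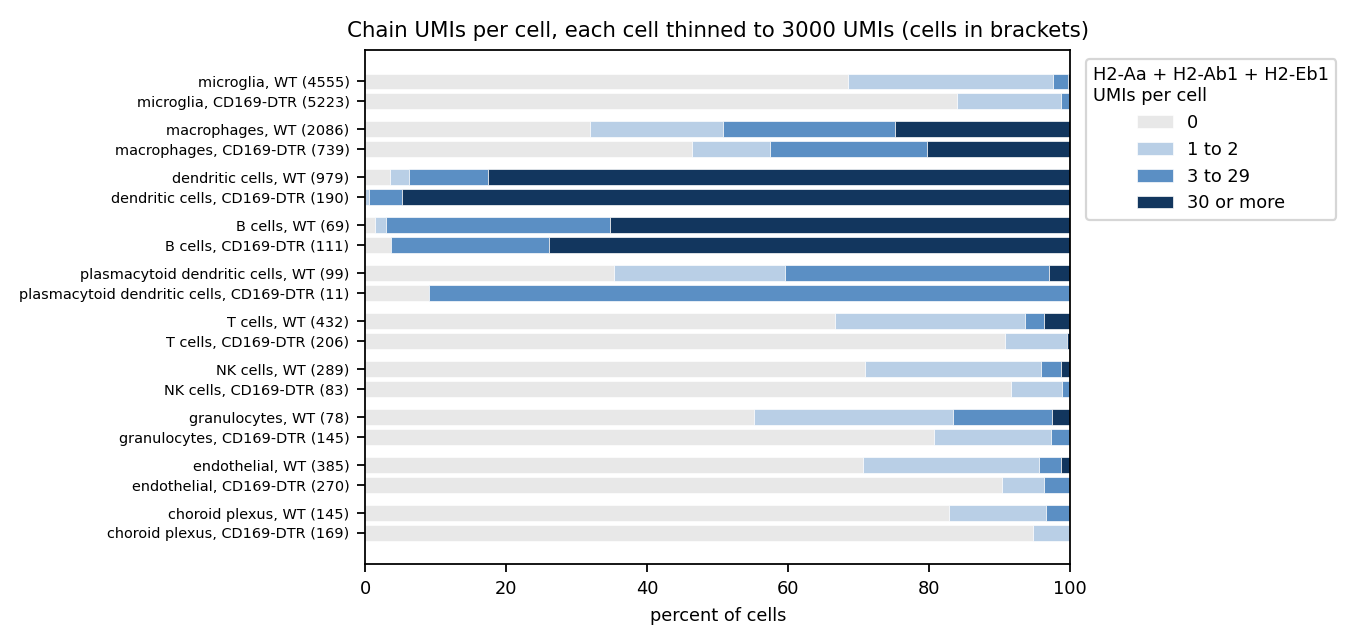
Percent of cells with 0, 1 to 2, 3 to 29, or 30 or more UMIs of the 3 chains, each cell thinned to 3000 UMIs, by class and library, with the number of cells in brackets. Dendritic and B cells are dark in both libraries, macrophages are split, and 68.4% of WT and 83.9% of CD169-DTR microglia are at 0, beside 66.7% and 90.8% of T cells and 82.8% and 94.7% of choroid plexus cells.

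Macrophages were split in class II. At 3000 UMIs, 31.9% of WT and 46.3% of CD169-DTR macrophages had no chain UMI, while 24.8% and 20.3% had 30 or more, a level that most dendritic cells reach (medians 94 and 109). The median was 2 chain UMIs in WT and 1 in CD169-DTR, and the tenth of cells with the most held 51.8% and 60.4% of the chain UMIs. The clusters described below shared unequally in the cells with none. Cluster 14 was 13.1% of these cells in WT and 29.2% in CD169-DTR, and 49.7% and 75.8% of its own cells had none. The shares with none were 29.7% and 43.4% in cluster 2, 32.9% and 38.6% in cluster 4, and 23.8% and 29.9% in cluster 15. Macrophages with 30 or more chain UMIs had a Ciita UMI in 24.3% of WT and 19.3% of CD169-DTR cells, against 1.05% and 0.585% of those with none. They had an H2-DMb1 UMI in 66.6% and 72.0%, against 15.5% and 14.9%. Cd209a, a gene of dendritic cells, was seen in 2.90% and 0.667% of them, against 1.05% and 0.292% of those with none, and Ms4a7, a macrophage gene, in 54.2% and 64.0%, against 51.4% and 48.8% of those with none. Their median Scrublet score, a measure of likeness to simulated doublets, was 0.0793 and 0.110, against 0.0461 and 0.0745, and its part was not tested. Median UMIs were 8711 and 12131 in the cells with 30 or more, and 8402 and 12137 in those with none.

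Between the libraries, the macrophage chains stood at 7535 CPM (WT) and 5612 CPM (CD169-DTR), a log2 ratio of 0.43 (0.41 to 0.44) and under 1.5-fold. H2-Aa was at 2446 and 1951 CPM (0.33), H2-Ab1 at 2969 and 2067 (0.52), H2-Eb1 at 2120 and 1594 (0.41) and Cd74 at 6989 and 5467 (0.35). H2-DMa differed by 0.10, H2-DMb1 by 0.28, H2-DMb2 by -0.29 and H2-Oa by 0.07. Ciita, at 35.2 (32.6 to 37.9) and 20.9 (18.2 to 23.9) CPM, had a log2 ratio of 0.75 (0.53 to 0.98) and was the 1 gene of 9 past 1.5-fold, where 5.84% of 9430 genes were so much higher in WT and 4.26% lower. The ratio of Ciita was -0.026 in cells of 5000 to 10000 UMIs, 0.032 without macrophage cluster 2 and 0.34 with equal weight per cluster. The median of the 9 was 0.33 and that of all genes -0.04. The share with at least 3 chain UMIs was 49.3% (47.1 to 51.5) in the WT library and 42.6% (39.0 to 46.3) in that of CD169-DTR. Over the same cells the summed macrophage markers were at 9444 and 6074 CPM and those of microglia at 683 and 756, and the 9 of dendritic cells at 60.7 and 37.9.

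The macrophage ratio was not shared by the 4 clusters. Cluster 2, led by Gpnmb, Ms4a7 and Pf4, had 8195 CPM of the chains in WT and 4465 in CD169-DTR (log2 0.88, 0.86 to 0.90), and Ciita at 34.5 and 10.4 CPM (1.73, 1.33 to 2.15). Cluster 4, led by Klra2 and Plac8 with Ly6c2, Vcan and Chil3, had 6500 and 5904 CPM of the chains (0.14) and Ciita at 40.2 and 49.3 CPM (-0.30, -0.65 to 0.07). Cluster 14, led by Ear2, Adgre4 and Treml4, had 4215 and 1622 CPM (1.38) and was 7.83% of the WT and 18.5% of the CD169-DTR macrophages. At resolutions 0.5 and 2 a cluster with these leading genes was left in no named class. Cluster 15, led by Retnla and Clec4e, went the other way, with 9935 and 13884 CPM (-0.48, -0.51 to -0.46). Without cluster 2 the ratio of the class was -0.02, and without cluster 14 it was 0.34. The median depth of cluster 2 was 4724 UMIs per WT cell and 15850 per CD169-DTR cell, the widest depth gap of the 4, and at 3000 UMIs 24.1% and 19.5% of them had 30 or more chain UMIs. The part of this depth gap in the ratio was not tested. The differences between clusters were not tested either.

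**Figure D4:**
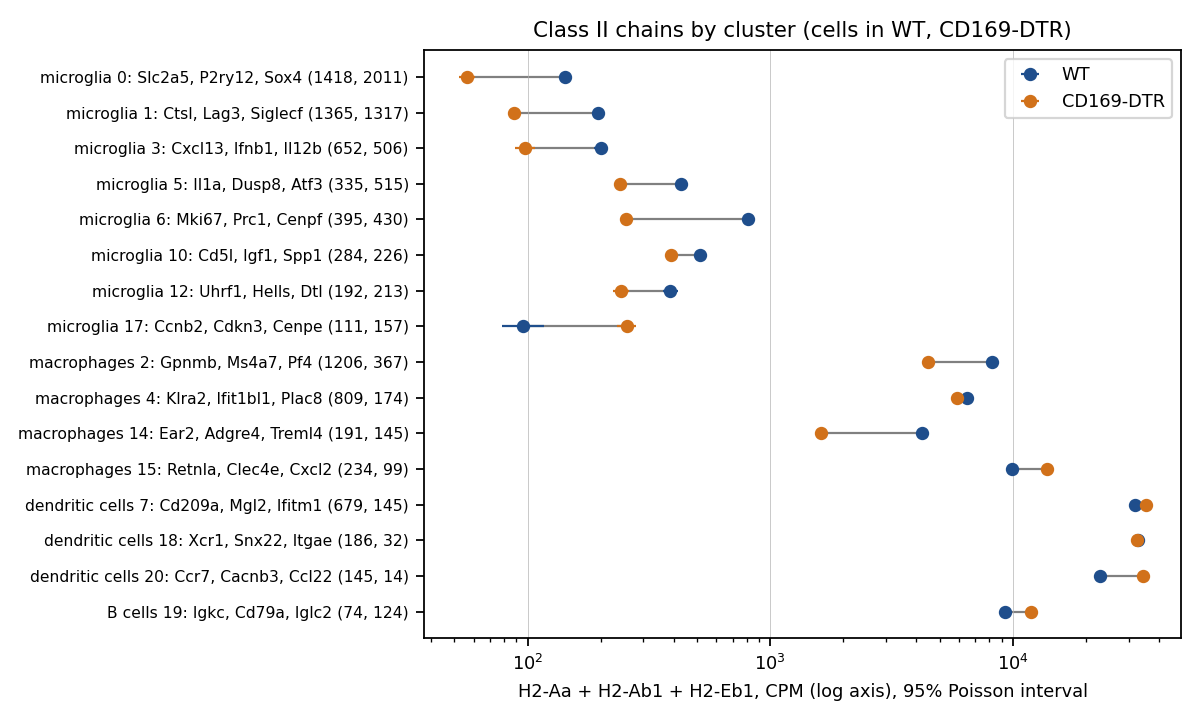
Summed CPM of H2-Aa, H2-Ab1 and H2-Eb1 (log axis, 95% Poisson intervals) in each cluster of the 4 classes, WT in blue and CD169-DTR in orange, with a grey line joining the libraries, 3 leading genes and the number of cells in each library. Macrophage cluster 15 and microglial cluster 17 have the order of the libraries turned against the rest of their class.

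Macrophages with a Siglec1 UMI did not have more chain RNA than those without in either library. In WT, 557 macrophages with and 1883 without it had 6709 and 7428 CPM of the chains at 3000 UMIs (log2 -0.15, -0.18 to -0.12). In CD169-DTR, 99 with and 686 without it had 5409 and 6174 CPM (-0.19, -0.27 to -0.11). Cd74 had the same direction, at -0.27 and -0.24. Ciita was at 36.8 and 36.3 CPM in WT, and at 41.2 with and 23.4 without Siglec1 in CD169-DTR (0.82, -0.23 to 1.76). Cells were split by any Siglec1 UMI before thinning, and deeper cells are more likely to have one, with medians of 15142 and 11379 UMIs in CD169-DTR.

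Dendritic cells differed little between the libraries. The chains were at 30918 CPM in WT and 34622 CPM in CD169-DTR (log2 -0.16, -0.17 to -0.15), and the 9 genes ranged from -0.20 (H2-DMa) to 0.29 (Ciita), with 0 past 1.5-fold in either direction, where 5.86% of 8107 genes were so much higher in WT and 4.95% lower. The Cd209a cluster had a ratio of -0.15, and the Xcr1 and Clec9a cluster 32696 and 32398 CPM (0.01, -0.01 to 0.03). The Ccr7 and Ccl22 cluster, with 145 and 14 cells, had 22900 and 34520 CPM (-0.59). In that cluster H2-DMa and Ciita were lower than in the other dendritic cells, at 177 and 226 CPM for H2-DMa, against 768 and 861 in the Cd209a cluster, and at 56.6 and 74.0 CPM for Ciita, against 195 and 141. The share of dendritic cells with at least 3 chain UMIs was 93.8% (92.1 to 95.2) in the WT library and 99.5% (97.1 to 99.99) in CD169-DTR. Macrophage markers summed to 5599 and 4174 CPM in the dendritic cells.

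B cells, 74 and 124 cells, had 9249 CPM of the chains in WT and 11886 in CD169-DTR (log2 -0.36, -0.41 to -0.31). H2-Oa, with 103 and 188 UMIs at 184 and 280 CPM (-0.61, -0.97 to -0.25), was the 1 gene of 9 past 1.5-fold lower in WT and 0 were higher, where 7.54% of 1617 genes were so much lower and 10.5% higher. It fell below 1.5-fold when the B cell with most chain UMIs in each library was left out, and the chain ratio was then -0.21. Summed macrophage markers were at 3379 CPM in WT and 901 in CD169-DTR B cells, and microglial markers at 1799 and 1295. The 9 dendritic cell markers went the other way, at 400 and 691 CPM, with 6 and 5 of them detected. Plasmacytoid dendritic cells, with 101 and 11 cells, had 2103 and 4364 CPM of the chains (-1.05).

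**Figure D5:**
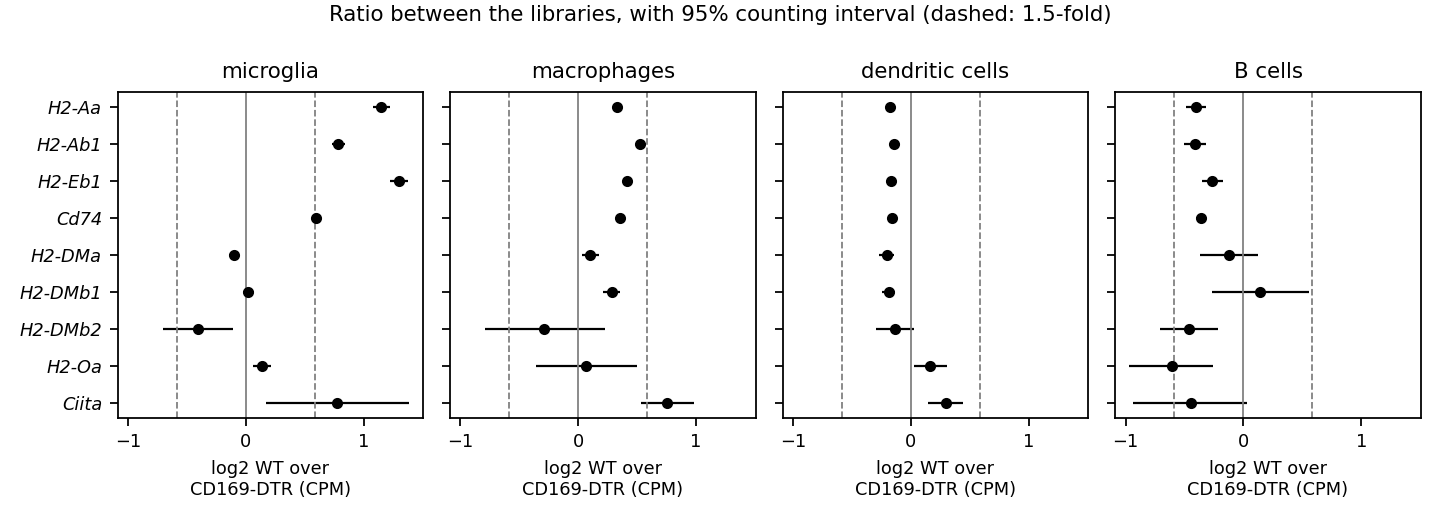
The log2 ratio of CPM, WT over CD169-DTR, of each gene in the 4 classes, with 95% counting intervals as bars and dashed lines at 1.5-fold. In microglia the chains and Cd74 are right of the line while H2-DMa, H2-DMb1 and H2-Oa are near 0, and in dendritic cells all 9 are within the lines.

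Of 25 further genes of the pathway, 22 have a row, and 19 could be compared in macrophages, 19 in microglia, 20 in dendritic cells and 9 in B cells. In macrophages 5 were at least 1.5-fold higher in WT and 0 lower, where 5.84% of all genes compared were so much higher. Among them, Irf1, a transcription factor induced by interferons, was at 205 and 116 CPM (log2 0.82). Cd40 was at 115 and 45.6 CPM (1.33) and Cd86 at 315 and 200 (0.66), both costimulatory molecules, and Il10, a cytokine that restrains macrophages, at 16.7 and 9.47 (0.82). In microglia Cd40 alone was past 1.5-fold, at 23.9 and 13.3 CPM (0.85), beside 1.71% of all genes. In dendritic cells 4 were higher, among them Rfx5 (12.9 and 4.51 CPM, with 14 UMIs in CD169-DTR), Irf1 and Cd40, and in B cells 2, among them Irf1, beside 5.86% and 10.5% of all genes. None was 1.5-fold lower in any of the 4 classes. The lysosomal proteases that cut the invariant chain and antigens were within 1.5-fold in macrophages, at 5269 and 6482 CPM for Ctss (-0.30) and 1834 and 2443 for Lgmn (-0.41).

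Among the 10 genes most like the mean pattern of the 9 over the 40 cluster sums were Kynu (Pearson r 0.91), Ms4a4c (0.84), Kmo (0.83), A530040E14Rik, Map4k1, Gm6377, Ero1lb, Napsa and Clec10a (0.81 to 0.79), out of 10917 genes. These sums share 2 libraries, their depth and their free RNA, and the values are a description. For the 9 themselves, each set against the same mean, of which it is a part, r ran from 0.97 (Cd74 and H2-Ab1) through 0.71 (H2-DMa) to 0.34 (H2-Oa). H2-Oa was thus the least like that mean. Between single genes, H2-Oa had an r of 0.06 with H2-Aa, 0.61 with H2-DMa and 0.66 with H2-DMb2.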

How the data were processed

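The authors sequenced 1 library of sorted CD45.2+ tumor cells per group on the 10x Single Cell 3′ v3 platform and counted UMIs with Cell Ranger on mm10, per the labels. The deposited counts are raw UMI counts of all droplets (matrix header software version 3.1.0), with no cells called. How reads of overlapping genes were counted is not given in the sources used here.

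Cells were barcodes that held 1000 UMIs or more and no more than 17% of them mitochondrial, 10107 in WT and 7604 in CD169-DTR, with 249 and 218 left out for mitochondrial UMIs. Cells were integrated with Seurat 5.3.0 (R 4.3.3) on 2000 variable features and 50 dimensions and clustered on 30 dimensions at resolution 1, without 11 class II genes, and clusters were named from marker lists. Doublets were kept, and leaving out the highest Scrublet scores was an alternative. Levels are UMIs per 1000000 (CPM) of a class. To compare shares of positive cells, each cell was thinned to 3000 UMIs. With 1 library per group no test was run. Intervals at 95% (Poisson, Clopper-Pearson, or exact conditional for ratios) cover counting error only. Genes with at least 100 UMIs over both libraries in a class were compared, and 1.5-fold was the limit for a count of genes. The ratios, their intervals, the 1.5-fold call and the thinning were checked on simulated data. Counts for the ratios were drawn from the Poisson model that the intervals assume, so that spread between cells was not covered. Free RNA was taken from barcodes of 10 to 100 UMIs. Its amount per droplet came from P2ry12, Tmem119, Sparc, Olfml3, Gpr34, C1qa, C1qb and C1qc in T cells, as a mean trimmed by 10% on each side. Gene positions came from GENCODE M21 (31011 of 31053 identifiers matched) and promoters from RefSeq (GRCm38.p6).

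The 9 genes and the further pathway genes were named by symbol, with pathway genes described where they passed 1.5-fold in macrophages or microglia or where their role is given, beside the 10 other genes with the highest Pearson correlation to the mean log2(CPM + 10) of the 9. Some genes of these lists are not reported here. Members and lists were chosen with earlier results of these data known.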

Additional observations from a re-analysis of the deposited data

Results flagged for a closer look

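The libraries differed in opposite directions between classes. The log2 ratio of the chains, WT over CD169-DTR, was 1.02 in microglia and 0.43 in macrophages, but -0.16 in dendritic cells and -0.36 in B cells. Within microglia, cluster 17 (led by Ccnb2) had -1.41, with 105 chain UMIs in WT and 450 in CD169-DTR, of which 1 cell held 347. Within macrophages, cluster 15 (led by Retnla and Clec4e) had -0.48. Each group is 1 library, so that these differences were not tested.

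Cluster 26, led by Col1a1 and Dcn and in no named class, had the chains at 1403 CPM in CD169-DTR and 307 in WT, with 18 and 17 cells. In CD169-DTR 1 cell held 444 of its 542 chain UMIs.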

How the results depend on the processing

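No paired analysis was possible because each group has 1 library and the labels give no shared replicate numbers, and for the same reason no replicate could be left out. All alternatives are values without a test, and the cause of each change was not tested. The log2 ratio of the chains kept its sign wherever it had a value, except in macrophages without cluster 2 (-0.020), where H2-Aa (-0.059), H2-Eb1 (-0.10) and H2-DMb1 (-0.074) also changed sign. Without macrophage cluster 4, 14 or 15 it was 0.54, 0.34 or 0.71. These alternatives by cluster, and that with the untrimmed mean below, were chosen after the data were seen.

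The chain ratio (microglia, macrophages, dendritic cells, B cells in this order) was 0.87, 0.20, -0.20 and -0.30 in libraries merged without integration, and 1.49, 0.34, -0.43 and -0.70 in cells of 5000 to 10000 UMIs. With equal weight per cell it was 1.38, 0.28, -0.23 and -0.19. In the first 3 classes it was 1.07, 0.33 and -0.19 at resolution 0.5, 1.06, 0.47 and -0.15 with median-ratio scaling, and 0.77, 0.16 and -0.070 with equal weight per cluster, which gives no other value for the single B cell cluster. In macrophages and dendritic cells it was 0.33 and -0.18 at resolution 2, and 0.38 and -0.14 without the highest Scrublet scores. Without the cell with most chain UMIs in each library it was 1.08 in microglia, 0.45 in macrophages and -0.21 in B cells. After subtraction of free RNA it was 0.70 in microglia, and with the untrimmed mean -0.10 in dendritic cells, with no value in microglia, where chain UMIs were left in CD169-DTR and none in WT.

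The number of the 9 genes past 1.5-fold, 4 in microglia, was 2 after subtraction of free RNA, 1 with the untrimmed mean and 2 with equal weight per cluster. In macrophages, 1 became 2 without the highest Scrublet scores and with the untrimmed mean, and 0 at 5000 to 10000 UMIs and with equal weight per cluster. In dendritic cells, 0 became 1 at 5000 to 10000 UMIs, H2-DMb2, from -0.14 to 1.02. In B cells, 1 became 6 at 5000 to 10000 UMIs and 0 under at most 10% mitochondrial UMIs, without the highest Scrublet scores, merged, without the top cell, with the untrimmed mean, with median-ratio scaling and with equal weight per cell. At 5000 to 10000 UMIs Ciita changed sign in macrophages (-0.026), and H2-Oa (-0.43) and Cd74 (0.033) in dendritic cells, as did H2-Oa with equal weight per cell (-0.031). Of genes whose interval held 0, H2-DMb1 in B cells was -0.61 and H2-DMb2 in macrophages 0.46, both at 5000 to 10000 UMIs. H2-Oa in macrophages ran from -0.67 to 0.33 over its alternatives. The WT minus CD169-DTR difference in the share with at least 3 chain UMIs was 0.683, 2.22 and 6.40 percentage points in microglia at 1000 UMIs, at 4500 UMIs and not thinned. It was -8.23 in dendritic cells at 1000 UMIs, and -9.09 in dendritic and -7.69 in B cells at 5000 to 10000 UMIs.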
